A study of Rattus norvegicus with 24 samples.

Results

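Follicular cells of the thyroid take up iodide from the blood, pass it into the follicle lumen and fix it to a stored protein from which thyroid hormone is cut. Slc5a5 is the sodium/iodide symporter that carries out the uptake, and Slc26a4 (pendrin) and Slc26a7 are anion transporters linked to the passage of iodide. Tg encodes thyroglobulin, the protein that is iodinated; Duox1 and Duox2 are the oxidases that make the hydrogen peroxide for this step, Duoxa1 and Duoxa2 are the maturation factors the oxidases need, and Iyd recovers iodide from iodotyrosines that were not used. These 9 genes, of 26276 distinct gene names on the array, were followed here, each taken as every non-control probe whose gene name on the array was the gene's symbol. That gave 10 probes of the 30367 non-control probes, all 10 among the 23416 probes kept for testing; Slc5a5 had 2 probes and each other gene had 1.

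The samples were thyroid glands of F1 pups of RccHan Wistar rats, collected at postnatal day 35 (±3 days) and hybridised singly to 1-colour Agilent arrays. Acrylamide, an industrial chemical that also forms in heated food, was dissolved in what the animals drank, to a dose of 3 mg per kg of body weight daily, for the dams from gestational day 6 and then for the pups; controls drank tap water. There were 6 groups of 4 arrays: female control and female acrylamide at night (10 PM), male control and male acrylamide at night (10 PM), and female control and female acrylamide in the morning (10 AM). The design asked whether this exposure changed gene expression in the gland, in either sex and at either hour. A level below is log2 of the background-subtracted signal minus the 75th percentile of its array, so a level of 0 is the brightness of the 75th percentile; replicate numbers follow the labels, and nothing in the labels tied a replicate to a litter, so each p-value refers only to the spread among these samples, which may be technical in part.

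Probe sequences are shown for Tg, Duox2 and Slc5a5, for the reasons given with each. The probes of Tg (chr7:104220688-104220747, plus strand) and Duox2 (chr3:109059361-109059420, minus strand) both hold the polyadenylation hexamer AATAAA, which marks the end of a transcript; the last 30 of their 60 bases are shown with the hexamer in capitals. Slc5a5 is read at chr16:19056181-19056240 by its brighter probe, called the leading probe here, and at chr16:19053093-19053152 by a second probe, both on the plus strand, so that the second lies nearer the 5′ end of the gene. The first 30 bases of the leading probe and the whole second probe are shown because the probes did not read alike on every array. Coordinates are those of the scanner files, build rn4.
Tg: caaccatttgctttcAATAAAgtatttgca
Duox2: ttggctgattgtaAATAAAgttgctataaa
Slc5a5, leading probe: tcattctttttcattgccaagttgtcttgt
Slc5a5, second probe: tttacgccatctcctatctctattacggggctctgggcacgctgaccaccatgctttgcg

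The remaining probes lay at chr6:49394773-49395832 (Slc26a4, minus strand, a span of 1060 bases for a probe of 60, spotted 10 times per array), chr5:28901375-28901517 (Slc26a7, minus strand, a span of 143 bases), chr3:109128329-109128388 (Duox1, plus), chr3:109082646-109082705 (Duoxa1, minus), chr3:109081149-109081208 (Duoxa2, plus) and chr1:34250639-34250698 (Iyd, plus). The 4 genes of the oxidase system are neighbours. In RefSeq's annotation of build GRCr8 they lie on chromosome 3 in the order Duox2, Duoxa2, Duoxa1, Duox1, with 51 bases between Duox2 and Duoxa2, 759 bases between Duoxa2 and Duoxa1 and 14 bases between Duoxa1 and Duox1, each oxidase lying head to head with a maturation factor. The gap between Duox2 and Duoxa2 (GRCr8 chr3:129698887-129698937, plus strand) and 60 bases at the start of Iyd (GRCr8 chr1:42410048-42410107, plus strand) are shown with the letters TATAAA in capitals, since these 2 of the 6 member windows held that motif.
Between Duox2 and Duoxa2: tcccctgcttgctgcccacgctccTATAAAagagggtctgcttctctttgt
Start of Iyd: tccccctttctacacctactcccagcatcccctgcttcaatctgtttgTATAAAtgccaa

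Windows of 300 bases around gene starts were on hand for Slc5a5, Slc26a4, Duox1, Duox2, Duoxa1 and Iyd. TATAAA, searched on both strands, was in 14.2% of the 33469 windows of all genes, and the other 2 motifs searched on both strands, CTCAAG and CACGTG, were in 15.8% and 6.42% of all windows and in 0 of the 6 member windows. These matches describe the letters in the windows and were not tied to any value below.

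The night arrays came from a scan session in which 0 non-control spots were saturated, and the morning arrays from another session with a lower ceiling, in which 188 to 469 of 58717 non-control spots per array were saturated. Each night slide held 1 sex, with controls in the first row of the slide and acrylamide samples in the second. At night, therefore, treatment cannot be told apart from row, nor sex from slide. Hour cannot be told apart from scan session and slide. As a check of the tissue label, 6 follicular genes outside the members, among them Pax8, Nkx2-1 and Tshr, were averaged: their mean level was 3.50 to 4.55 on the 16 night arrays and 3.55 to 4.01 on the 4 morning controls. In the morning acrylamide group it was 2.75, 2.70 and 3.38 for replicates 2, 3 and 4 and -2.28 for replicate 1. That array stands apart from all others, and the main morning differences below are also given without it. In bulk tissue, fewer follicular cells and less RNA per cell cannot be told apart.

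Tg, the iodinated precursor protein, overlapped between groups at night, close to the ceiling of the scan. It could not be measured at its true height in the morning. Its night signals were 439309 to 707226, beside ceilings of 779039 on the female slide and 778978 on the male slide. The highest night level, 9.27, was on the night array with the lowest 75th percentile (9.77). Differences at night may be compressed, which was not tested. The Tg level was 8.75, 8.71, 8.76 and 8.58 in female night controls and 8.70, 9.24, 8.67 and 8.38 in females on acrylamide. In males at night it was 8.63, 8.36, 7.95 and 9.27 in controls and 8.88, 8.67, 8.92 and 8.37 on acrylamide. The acrylamide arrays overlapped the controls in both sexes, and the differences were 0.05 in females and 0.16 in males. In the morning the 4 controls read 6.99, 6.99, 6.77 and 7.51, and all 4 were saturated. The acrylamide arrays read -0.85, 6.48, 7.04 and 6.43, of which replicates 2 to 4 were saturated. A saturated value is a lower bound, so no fold and no direction is given for Tg between night and morning, nor among the saturated morning arrays; replicate 1 stood at -7.92 relative to the mean of its controls, which is a bound, since those were saturated.

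Slc5a5, which brings iodide into the cell, was higher on every male acrylamide array than on every male control by its leading probe, without passing the test. In males at night the leading probe read 2.54, 2.54, 2.63 and 2.71 in controls and 3.62, 3.07, 3.25 and 3.54 on acrylamide, a difference of 0.77 (SE 1.18; limma adjusted p = 0.769). The large standard error is shared over all 24 arrays; in a fit of the 16 night arrays alone it was 0.32, with a limma adjusted p of 0.271. In females at night the probe read 2.92, 2.41, 2.29 and 3.02 in controls and 3.66, 2.44, 2.54 and 1.62 on acrylamide, and the acrylamide arrays lay on both sides of the controls. In the morning it read 2.11, 2.35, 2.42 and 2.06 in controls and -6.44, 1.62, 1.04 and 3.04 on acrylamide, with replicate 1 not well above background, replicates 2 and 3 below all controls and replicate 4 above them.

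The second Slc5a5 probe parted most from the leading one on male acrylamide replicates 2 and 4 and on morning acrylamide replicate 1. In males at night it read between -1.47 and -0.53 in controls and -0.02, -3.06, 0.09 and -1.95 on acrylamide. Replicates 1 and 3 were thus above all male controls by both probes. Replicates 2 and 4, high by the leading probe, were lower than all male controls by this one. The gap between the 2 probes was 3.24 to 4.01 on the 12 other night arrays of the control groups and of females, 3.64 and 3.15 on male acrylamide replicates 1 and 3, and 6.14 and 5.49 on replicates 2 and 4. A measure of the same kind was taken over 1333 other genes with probes 500 to 20000 bases apart: the median of the 3′-most minus the 5′-most probe, relative to the night mean of each gene. It was 0.66 and 0.44 on male acrylamide replicates 2 and 4 and -0.41 to 0.09 on the other 14 night arrays. Over the 16 night arrays the Slc5a5 gap and this measure gave Pearson r = 0.95 and Spearman rho = 0.94, as a description of arrays that share sex, slide and treatment. On morning acrylamide replicate 1 the leading probe stood at -8.68 relative to the control mean, while the second stood at -0.49 and was well above background. The differences on acrylamide by the second probe were 0.04 for the female night groups, -0.16 for the male groups and 0.20 for the morning groups. Its morning levels were -1.98, -2.32, -2.26 and -2.56 in controls and -2.77, -2.40, -2.39 and -0.75 on acrylamide, where replicate 4 was the highest array by both probes.

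**Figure D1:**
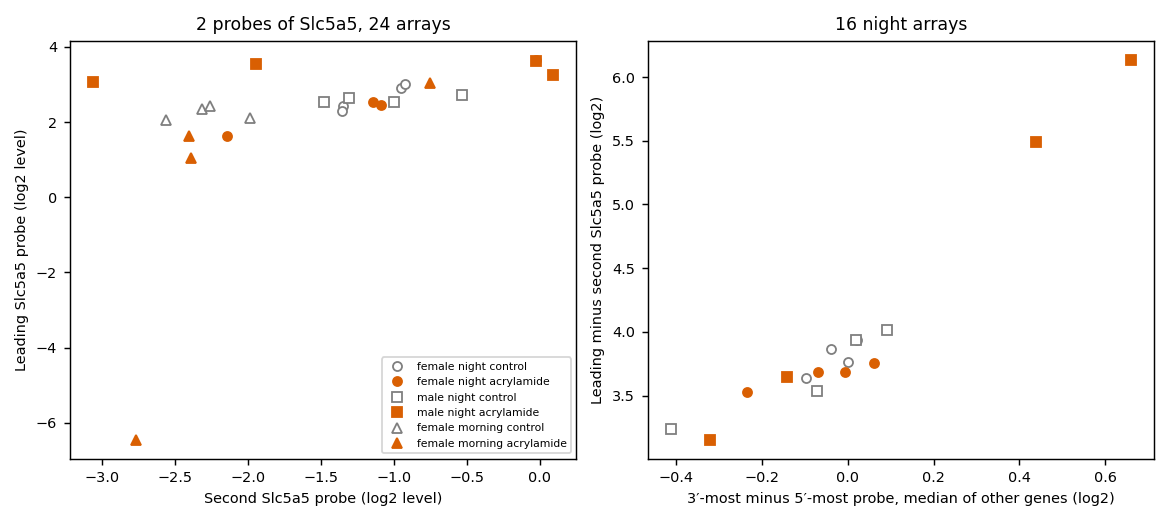
Left, level of the leading against the second Slc5a5 probe (both log2, relative to the 75th percentile) on each of the 24 arrays; right, the leading minus the second probe against the median of the 3′-most minus the 5′-most probe of 1333 other genes (both log2), on the 16 night arrays. Each point is 1 array; male acrylamide replicates 2 and 4 sit at gaps of 6.14 and 5.49, above the other night arrays.

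Slc26a4, the pendrin anion exchanger, was measured near the detection limit. It was not well above background on any of the 16 night arrays and was detected in the morning, only on the slide that held 3 controls and 2 acrylamide arrays. It was well above background on 3 of 4 morning controls and 2 of 4 morning acrylamide arrays. The morning controls read -4.83, -4.71, -4.67 and -5.54, and the female night controls -7.77, -8.05, -8.26 and -8.29. Each female night control was set to its array's lowest level well above background, or to its own value if higher. Against that, morning controls were 5.90-fold higher, by the mean of 4 arrays of which 3 were well above background. This is no lower bound for the gene. Morning control replicate 4 was not well above background at -5.54, though the lowest level so flagged on its array was -7.10. The limma fit called the difference lower at night (adjusted p = 2.84e-09), but it compares measured values with values at the floor of another scan session, so the p-value is no measure of the size. Females on acrylamide at night read -7.98, -8.02, -8.24 and -8.49. Detection by spot ran with the slide: 6, 10, 8 and 0 of 10 spots were well above background on morning control replicates 1 to 4, and 0, 8, 8 and 0 on the acrylamide replicates. The arrays at 0, control replicate 4 and acrylamide replicates 1 and 4, shared a slide, and the others shared another. Treatment was split unevenly over these slides, so the morning differences below are mixed with slide. Within the slides they were -0.57 where spots were detected and -0.82 where none was. Acrylamide arrays in the morning read -6.57, -5.46, -5.17 and -6.17, a difference of -0.90 (SE 0.26; limma adjusted p = 0.0654) with overlap between the groups, and of -0.66 (adjusted p = 0.276) without replicate 1. It passed the threshold without morning control replicate 4 (adjusted p = 0.0483), acrylamide replicate 2 (difference -1.03, adjusted p = 0.0408) or acrylamide replicate 3 (difference -1.12, adjusted p = 0.0162), although 3 of these 8 arrays were not well above background.

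Slc26a7, an anion transporter of the same family, was close between groups at night. Female night controls read -0.22, -0.33, -0.30 and -0.28 and acrylamide females -0.01, -0.05, -0.18 and -0.43, while males read -0.59, -0.69, -0.26 and -0.26 in controls and -0.29, 0.16, -0.28 and 0.73 on acrylamide. Both sets overlapped, with differences of 0.12 and 0.53. In the morning the 4 controls lay between -0.82 and -0.59, and the acrylamide arrays read -6.98, -1.95, -2.16 and -0.67, the first not well above background. Replicates 1 to 3 were below every control and replicate 4 among them. The mean difference of -2.26 (SE 0.77; limma adjusted p = 0.0996) became -0.91 without replicate 1.

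Duox2, the main oxidase of the thyroid, was the member whose groups separated fully in 2 strata and in opposite directions, higher on acrylamide in males at night and lower in the female morning samples. It read 2.33, 2.40, 2.40 and 2.26 in male night controls and 2.59, 3.12, 2.68 and 3.23 in males on acrylamide, every acrylamide array above every control. The difference was 0.56 (SE 0.20, a ratio of 1.47; limma adjusted p = 0.352). In females at night it read 2.27, 2.51, 2.47 and 2.43 in controls and 2.79, 2.75, 2.58 and 2.44 on acrylamide, and the groups overlapped. In the morning the controls read 2.20, 2.47, 2.43 and 2.03 and the acrylamide arrays 0.82, 1.80, 1.21 and 2.00, every acrylamide array below every control, replicate 4 only just. Duox2 fell in the morning by 0.82 on the log2 scale (SE 0.20, 95% interval -1.25 to -0.40, 1.77-fold lower; limma adjusted p = 0.0453).

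That call rested on the scaling and on single arrays: with array-median scaling 0 members were called. Without replicate 1 of the acrylamide group the Duox2 difference was -0.61 with a limma adjusted p of 0.180, and the call was also lost without morning control replicate 1, 2, 3 or 4 (adjusted p 0.0805, 0.142, 0.114 and 0.0535). Over all 24 arrays left out in turn, 16 left 0 members called, among them each of the 8 female night arrays and the 4 male controls, which enter only through the shared spread and the adjustment. Within the slide that held 3 controls and 2 acrylamide arrays, the Duox2 difference was -0.86, and within the slide that held 1 control and 2 acrylamide arrays it was -0.61. On the latter slide acrylamide replicate 1 read 0.82, while acrylamide replicate 4 read 2.00 beside 2.03 for the control. Relative to the mean of the 6 other follicular genes on the same array, the sign of the Duox2 difference turned, to 1.31 (limma adjusted p = 0.116), and to 0.21 (adjusted p = 0.270) without replicate 1. That scale moved all probes: their median difference on it was 2.03, and 0.74 without replicate 1.

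Duox1 is the second oxidase, made also in airway epithelium. It read -0.15, 0.43, 0.97 and 0.42 in male night controls and 0.67, 1.34, 0.79 and 1.57 on acrylamide, a difference of 0.67 (SE 0.24; limma adjusted p = 0.352) with overlap. Female night arrays read 0.26, 0.44, 0.54 and 0.41 in controls and 0.65, 0.43, 0.34 and 0.36 on acrylamide, again overlapping. Morning values were -0.34, -0.12, -0.08 and -0.31 in controls and -1.15, -0.84, -0.34 and -0.08 on acrylamide, with overlap from replicates 3 and 4 and a difference of -0.39 (SE 0.24; limma adjusted p = 0.312). In control females Duox1 was 0.62 higher at night than in the morning (SE 0.24; limma adjusted p = 0.0351), with no overlap (27.3% of all probes were higher at night without overlap), but the call was lost without any one of 5 arrays: female night control 2, 3 or 4 and female morning control 1 or 4 (adjusted p 0.0663, 0.0802, 0.0610, 0.0795 and 0.0752).

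Duoxa1 and Duoxa2, which carry the oxidases to the cell surface, gave overlapping groups in all 3 acrylamide comparisons. Duoxa1 read 0.29, 0.60, 1.13 and 0.67 in male night controls and 0.85, 1.03, 0.98 and 1.37 on acrylamide; in females it read 0.36 to 0.84 in night controls and 0.42 to 1.22 on acrylamide. In the morning it read -0.26, 0.02, 0.30 and -0.25 in controls and -1.71, -0.41, -0.74 and 0.26 on acrylamide, a difference of -0.60 (SE 0.29; limma adjusted p = 0.215). Duoxa2 read -2.47, -2.20, -2.08 and -2.12 in male night controls and -1.76, -0.96, -2.14 and -0.45 on acrylamide, where replicates 2 and 4 were the high ones, a difference of 0.89 (SE 0.48; limma adjusted p = 0.387). It read -1.59, -1.54, -1.21 and -1.77 in morning controls and -4.79, -1.63, -2.21 and -1.81 on acrylamide, with replicate 1 far below the rest and a difference of -1.08 (SE 0.48; limma adjusted p = 0.182).

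Iyd, which frees iodide from unused iodotyrosines, was lower on every morning acrylamide array than on every morning control. It read 0.54, 0.59, 0.48 and 0.08 in controls and -7.14, -0.68, -0.97 and 0.02 on acrylamide, the first not well above background. The difference was -2.62 (SE 0.91; limma adjusted p = 0.107) and became -0.97 without replicate 1. At night the groups overlapped, at 0.54 to 1.04 in female controls and 0.70 to 1.1 on acrylamide, and at 0.29 to 0.98 in male controls and 0.68 to 1.43 on acrylamide.

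The spread within groups set how far these means could be read. The SD over 4 arrays had a median of 0.20 over the 9 members in female night controls and 0.31 in male night controls, beside 0.18 and 0.25 over all kept probes. In morning controls it was 0.23 beside 0.25, and in the morning acrylamide group 1.47 beside 0.45, ranging from 0.48 to 4.26 among the members.

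**Figure D2:**
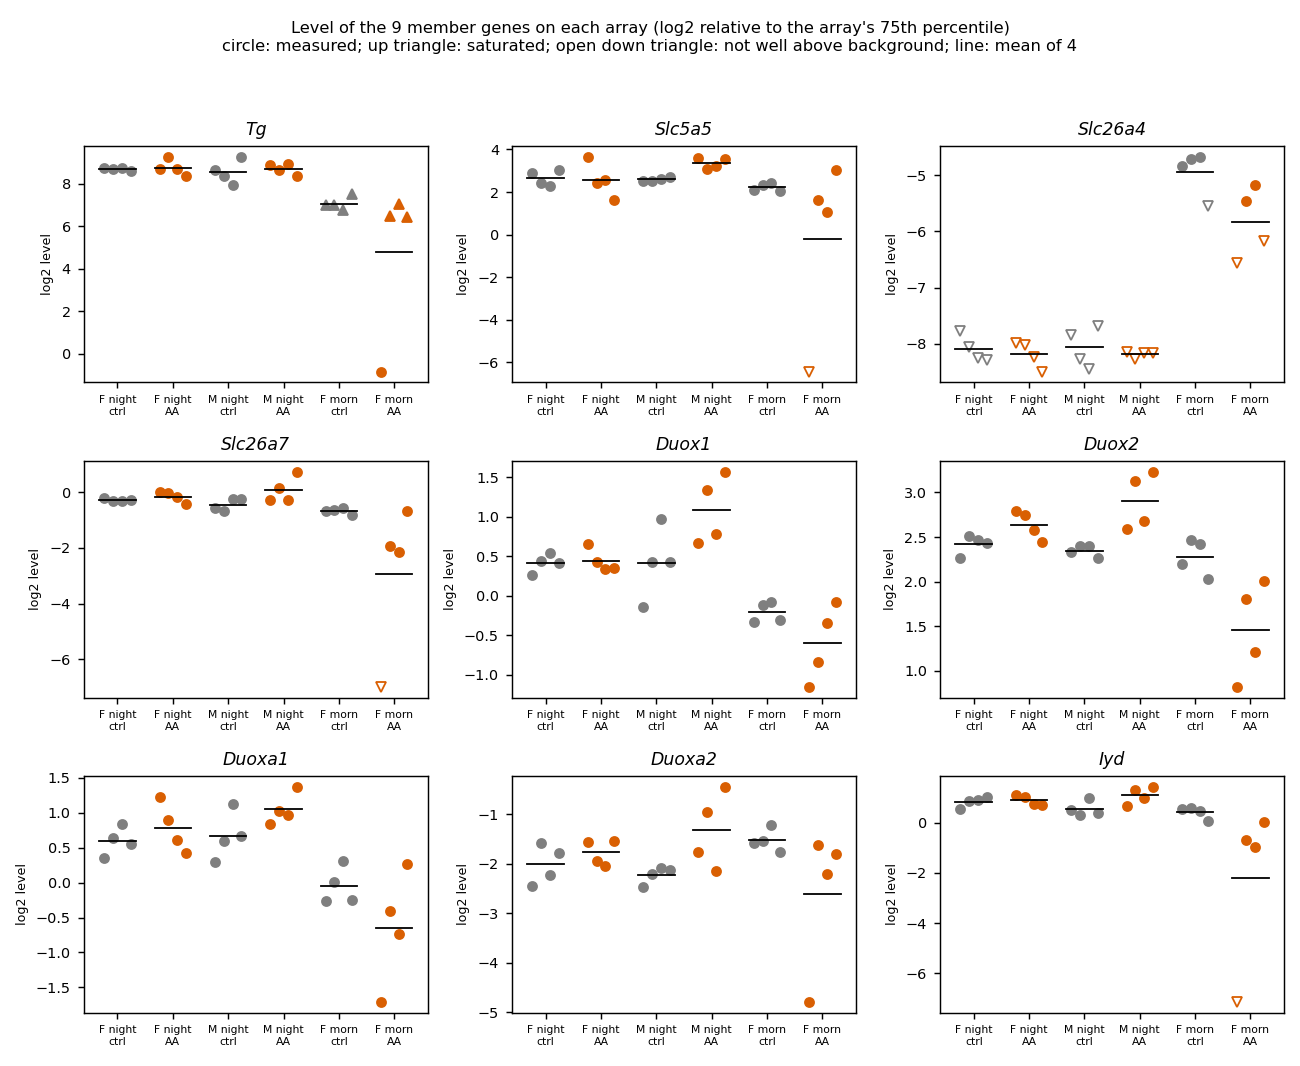
Level of the 9 members (leading probe; log2 relative to the 75th percentile of each array) on all 24 arrays by group, with F and M for females and males, ctrl for control and AA for acrylamide; lines are means of 4 arrays. Tg is saturated on the morning arrays other than acrylamide replicate 1, Slc26a4 is not well above background at night, and acrylamide replicate 1 of the morning lies far below the other arrays for Tg, Slc5a5, Slc26a7, Duoxa2 and Iyd.

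Counted over the 10 member probes, acrylamide in females at night called 0 members (limma, adjusted p under 0.05). Of all 23416 probes, 0 (0%) were called. At an unadjusted p under 0.05 there were 0 members and 414 probes (1.77%). The fit shares its spread with the morning arrays, so nothing is read from the 0 members. With the night arrays alone the limma adjusted p was 0.99987 for each leading probe. Differences of the 9 leading probes ran from -0.09 to 0.24, with a median of 0.06 beside 0.02 over all probes. No member had groups without overlap, as against 5.33% of all probes. Marker lists of other tissues varied among these arrays. The mean of the 4 tested pituitary markers was -5.44 to -3.58 on female night controls and -5.45 to 0.64 on acrylamide arrays. The 10 skeletal muscle markers averaged 6.75 to 7.37 and 3.87 to 7.09, and the markers of T cells and thymocytes -4.96 to -3.48 and -4.19 to -0.86. Their part in the member values at night in females was not tested.

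In males at night acrylamide again called 0 members and 0 of all probes (0%) by limma. At an unadjusted p under 0.05 there were 2 members and 3203 probes (13.7%). That fit shares its spread over all arrays, morning acrylamide replicate 1 among them. Its SE was 0.91 for Iyd, 0.77 for Slc26a7 and 0.48 for Duoxa2. With the night arrays alone these were 0.19, 0.20 and 0.31. The member count is therefore not read against the share of all probes. In the night fit the lowest limma adjusted p among the leading probes was 0.203 (Duox2). The leading probes of 8 of 9 members were higher on acrylamide, with a median difference of 0.56 beside -0.01 over all probes, and 2 members, Slc5a5 and Duox2, were higher without overlap, as were 2.80% of all probes. Without replicates 2 and 4, the arrays with the highest 3′ to 5′ measure, the differences shrank to 0.31 for Duox1, 0.29 for Duox2, 0.27 for Duoxa2, 0.17 for Slc26a7 and 0.30 for Iyd, while Slc5a5 stayed at 0.83. Marker lists of other tissues also moved with this group. The mean of the 4 tested pituitary markers was -5.28 to -3.52 on male controls and -1.67 to 3.00 on male acrylamide arrays (Tshb was not among the tested probes), the 10 skeletal muscle markers averaged 6.82 to 7.93 and 1.75 to 7.48, and the 6 follicular genes 3.50 to 3.88 and 3.76 to 4.55. On replicate 4 the 3 parathyroid markers averaged -1.74, against 3.48 to 4.02 on the other male acrylamide arrays. The part of these in the member values was not tested. Relative to the 6 follicular genes, 0 members were without overlap in males, but the share of all probes on that scale was not taken. That scale also carries the spread of the 6 genes themselves, so nothing is concluded from the 0.

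In females in the morning 1 of 10 member probes was called, Duox2, lower, beside 338 of all probes called lower (1.44%) and 429 called in either direction (1.83%) by limma. At an unadjusted p under 0.05 there were 6 members, with the saturated Tg among them, beside 23.4% of all probes. Leaving Tg aside, the leading probes of the other 8 members were lower on acrylamide, with a median difference of -0.99 beside -0.10 over all probes, and 2 members, Duox2 and Iyd, were lower without overlap, as were 6.55% of all probes. Without replicate 1 these 8 differences were still below 0, from -0.97 (Iyd) to -0.21 (Duox1), and 0 members were called; without replicate 4 there were 4 (Duox2, Slc26a7, Duoxa1 and Iyd), and without replicate 2 or 3 there were 2 (Duox2 and Slc26a4). Over all probes the count of 429 ran from 2 without control replicate 2 to 2386 without acrylamide replicate 3, with 54, 19 and 207 without control replicates 1, 3 and 4, and 18, 1075 and 1842 without acrylamide replicates 1, 2 and 4. Leaving out a night array gave from 88 to 471. The 6 other follicular genes moved with the members, from 3.55 to 4.01 in controls to 2.70 to 3.38 on acrylamide replicates 2 to 4. Within the slide of 3 controls and 2 acrylamide arrays, which does not hold acrylamide replicate 1, the differences were -0.96 for Slc5a5, -0.57 for Slc26a4, -1.42 for Slc26a7, -0.41 for Duox1, -0.59 for Duoxa1, -0.47 for Duoxa2 and -1.36 for Iyd. Within the slide of 1 control and 2 acrylamide arrays, which holds it, they were -3.76, -0.82, -3.01, -0.31, -0.48, -1.53 and -3.64 in the same order. By these means each of these members was lower on both slides. Duox1 and Duoxa1 were no lower on the slide with replicate 1 than on the other. The other acrylamide array of that slide, replicate 4, read above its control for Slc5a5 (3.04 against 2.06), Slc26a7 (-0.67 against -0.82), Duox1 (-0.08 against -0.31) and Duoxa1 (0.26 against -0.25). It read below that control for Slc26a4 (-6.17 against -5.54), Duoxa2 (-1.81 against -1.77) and Iyd (0.02 against 0.08). Levels of other tissues' markers also differed between the morning arrays: the 7 oesophageal markers averaged -2.38 to -1.31 on controls and 1.84, -0.75, 2.16 and -2.34 on acrylamide replicates 1 to 4, and the 3 parathyroid markers -0.72 to 2.49 and -5.28, 2.16, -2.55 and 2.84. The 5 airway markers averaged -2.09 to -1.40 on controls and -2.47, 0.44, -2.21 and -2.32 on acrylamide, and the 7 markers of T cells and thymocytes -3.41 to -2.21 and -4.58, 0.79, -3.87 and -4.48, so that replicate 2 was the high array for both. The 7 C cell markers averaged 0.85 to 1.96 on controls and -2.87, 1.19, 0.74 and 1.55 on acrylamide. Their part in the member values was not tested.

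**Figure D3:**
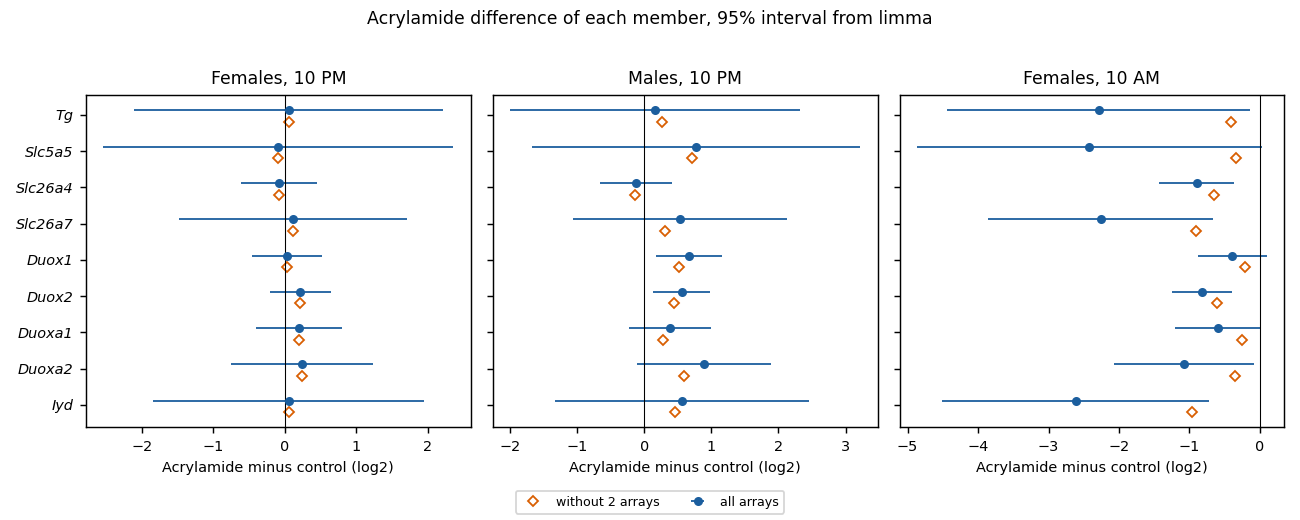
Acrylamide minus control (log2) for the leading probe of each member in females at 10 PM, males at 10 PM and females at 10 AM; circles with bars are limma estimates with 95% intervals on 4 against 4 arrays, and open diamonds leave out morning acrylamide replicate 1 and male acrylamide replicate 4. In the morning panel the diamonds lie between -0.97 and -0.21, nearer 0 than the circles; Tg there rests on saturated arrays and has no exact difference.

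The array that stands apart separated the members from each other. On morning acrylamide replicate 1, relative to the mean of its 4 controls, the leading Slc5a5 probe stood at -8.68 log2 units, Tg at -7.92, Iyd at -7.56 and Slc26a7 at -6.30. None of these 4 is an exact size, since Tg was saturated on the controls and the other 3 were at the floor of this array, so they have no order. Thyroid transcription factors outside the members ranged widely, with Pax8 at -7.63, Nkx2-1 at -7.40, Hhex at -4.82 and Foxe1 at -2.04. Among the oxidase genes, Duox1 stood at -0.94, Duox2 at -1.46, Duoxa1 at -1.66 and Duoxa2 at -3.26. All 4 were well above background there, while Iyd, Slc26a7 and the leading Slc5a5 probe were not. Over all kept probes, this array ran from -1.73 at the 5th percentile to 1.77 at the 95th, with a median of -0.16, so Duox1, Duox2, Duoxa1 and the second Slc5a5 probe lay within the spread of the array, as did Slc26a4 at -1.63, which was not well above background there, and Duoxa2, Slc26a7, Iyd, Tg and the leading Slc5a5 probe lay outside it. On the other 3 acrylamide arrays the means were -0.21 for Duox1, -0.61 for Duox2, -0.25 for Duoxa1 and -0.35 for Duoxa2. On those arrays Iyd was at -0.97, Slc26a7 at -0.91, Hhex at -0.96 and Pax8 at -0.77. Relative to the 6 follicular genes the morning difference was 1.74 for Duox1 and 1.53 for Duoxa1, each smaller than the median of 2.03 over all probes on that scale, and without replicate 1 it was 0.61 and 0.57, beside a median of 0.74.

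**Figure D4:**
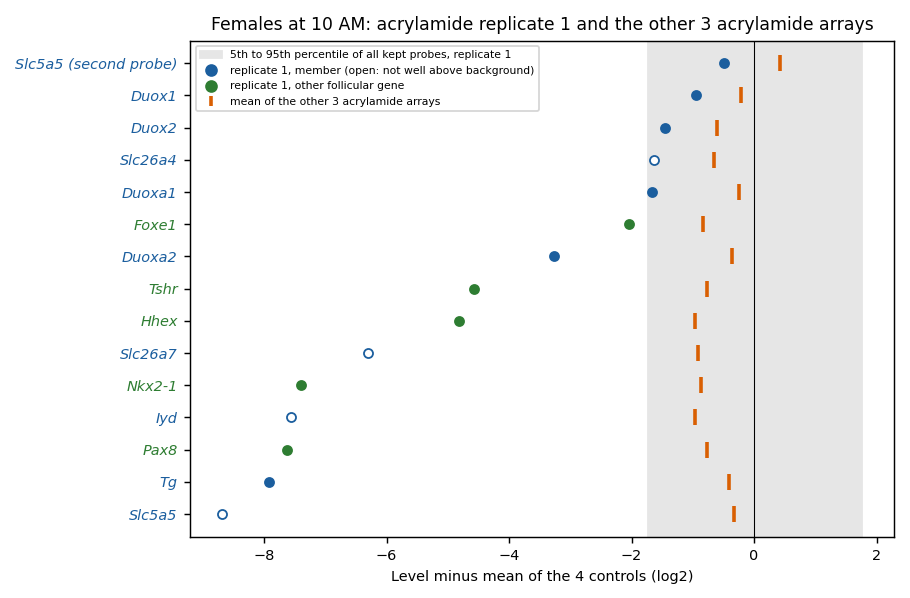
Level on morning acrylamide arrays minus the mean of the 4 morning controls (log2), for the 10 member probes and 5 other follicular genes; dots are replicate 1 (open where not well above background), bars the mean of the other 3 arrays, and the shaded band holds the 5th to 95th percentile of all kept probes on replicate 1. The probes of Duox1, Duox2, Slc26a4 and Duoxa1 fall inside the band, at -0.94 to -1.66, and those of Tg, Iyd and the leading Slc5a5 probe lie below -7.5.

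The tests of differences between strata called no member. The acrylamide difference in males minus that in females at night gave 0 called probes (0%) by limma. At an unadjusted p under 0.05 it gave 0 members and 527 probes (2.25%). Its spread is shared with the morning arrays, so nothing is read from the 0 members. Morning minus night in females also gave 0 called probes (0%), with 3 members and 3709 probes (15.8%) at an unadjusted p under 0.05; Duox2 differed by -1.04 (SE 0.29; limma adjusted p = 0.234), and by -0.83 (adjusted p = 0.407) without morning acrylamide replicate 1. Averaged over the 3 strata, 1 probe (0.00427%) and 0 members were called by limma, and 1 member and 1563 probes (6.67%) passed an unadjusted p under 0.05; Slc26a4 was the member, at -0.37 (adjusted p = 0.708).

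Among controls, night against morning in females called 11138 of 23416 probes (47.6%) by limma and 2 of 10 member probes: Slc26a4, lower at night, as were 26.6% of all probes, and Duox1, higher at night, as were 21% of all probes. This share is below that of all probes, and hour, slide and scan session cannot be told apart in it. Males against females at night, where sex and slide cannot be told apart, called 2 probes (0.00854%) and 0 members by limma. At an unadjusted p under 0.05 there were 378 probes (1.61%) and 0 members. Here too the spread is shared with the morning arrays, so nothing is read from the 0 members. The 9 leading probes differed by -0.30 (Iyd) to 0.07 (Duoxa1).

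Of 26 other genes of hormone synthesis, release and thyroid identity, 24 had a tested probe. Acrylamide called 0 of the 24 at night in females and 0 in males by limma. In the morning 1 of 24 was called, beside 1.83% of all probes. It was Foxe1, a thyroid transcription factor, lower by 1.14 on the log2 scale (SE 0.26; limma adjusted p = 0.0415). Of the 24, 20 were below 0, with a median of -0.88 beside -0.10 over all probes. Without replicate 1, 0 of 24 were called, Foxe1 was at -0.84 (adjusted p = 0.146), 22 were below 0 and the median was -0.41. Some of those not called are named here after their values were seen. Lrp2, the endocytic receptor that binds Tg, was at -2.93 (limma adjusted p = 0.132), and at -0.88 without replicate 1. Of the cathepsins, which digest Tg, Ctsd was at -0.21 and Ctsb at -0.57. Ctsb was nearer the threshold than Lrp2 (limma adjusted p = 0.0566). Without replicate 1 the listed cathepsins were at -0.41 (Ctsb), -0.23 (Ctsd), -0.02 (Ctsk) and -0.04 (Ctsl). Night against morning in controls called 5 of the 24, a smaller share than the 47.6% of all probes called. The spread in that fit is shared over all arrays, morning acrylamide replicate 1 among them, so nothing is read from the smaller share. Foxe1 (-1.32) and Slc16a10 (-0.90) were lower at night and Gnas (0.61), Ctsb (0.55) and Fcgbp (1.22) higher. Hour, slide and scan session cannot be told apart in these.

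Within the night arrays the oxidase genes, Slc26a7 and Iyd were correlated, more by Pearson's r than by rank for most pairs. Duox1 and Duoxa1 gave Pearson r = 0.85 and Spearman rho = 0.90 over the 16 night arrays, Duox2 and Iyd gave 0.83 and 0.77, Duox2 and Duoxa2 gave 0.85 and 0.69, Slc26a7 and Duox2 gave 0.84 and 0.56, and Slc26a7 and Duox1 gave 0.79 and 0.39. Tg, with night signals close to the ceiling of the scan, gave 0.12 and 0.07 with Slc5a5, and -0.28 and -0.09 with Duox1. These are descriptions of arrays that share slides, treatment and the 3′ to 5′ measure, and Slc26a4 was not well above background on any of them. Of 14203 other named genes, those most like the mean of the 9 scaled members over the 24 arrays were Folr1 (Pearson r = 0.99), Kcnip3 (0.99), Mt3 (0.98), Sqle (0.98) and Acot1 (0.98). Without morning acrylamide replicate 1 these were 0.97, 0.96, 0.89, 0.91 and 0.91. Over the 16 night arrays the most alike included Rab27b (r = 0.94), Folr1 (0.93), Get1 (0.93) and Ncoa7 (0.91). For Tg, saturated on 7 of the 8 morning arrays, the nearest over 24 arrays, Calca, Sgms2, Mro and Clic3 among them, rested on capped values and on the array that stands apart: over the 16 night arrays these 4 gave r = 0.30, 0.47, -0.18 and 0.06. Over the night arrays, with Tg signals close to the ceiling, the nearest to Tg were Arl5a (r = 0.90), Dpy19l4 (0.90), Zbtb42 (0.89), Hipk4 (0.89) and Dcun1d1 (0.88), none of them in the list over 24 arrays.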

How the data were processed

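Per the file headers, spots were quantified with Agilent Feature Extraction 10.1.1.1, and the deposited scanner files give an intensity per spot (the processed signal, background-subtracted) and flags for saturation and for signal well above background; build rn4. The authors' deposited value table is on a log2 scale with a median of 0 in each column, correlated at 0.99997 or more with log2 of the processed signals, and served as an alternative. Spots flagged as non-uniform or as outliers were dropped, log2 was taken per spot and averaged over a probe's spots, and the 75th percentile of each array was subtracted. A probe counted as saturated, or as well above background, where its spots with that flag were at least as many as those without it. Of 30367 probes, 23416 were kept: well above background on at least 3 of 4 arrays of 1 group or more. All 24 arrays (6 groups of 4) entered 1 limma fit (limma 3.58.1, R 4.3.3; 18 residual degrees of freedom, 2-sided, Benjamini-Hochberg adjustment over all kept probes, threshold 0.05), tested on simulated data. Genes were named from the array's accessions through RefSeq's GRCr8 table; sequences of promoters are RefSeq's. For a gene with several probes the leading probe had the highest mean level over the 24 arrays. Every member probe is reported; of other pathway genes those called, and as most alike the 5 genes of highest Pearson correlation. Members and gene lists were chosen with earlier results of these data known. No 2 arrays held identical values (highest correlation 0.992). Other scalings, background corrections, filters, blocks, array weights and omissions of arrays were tried. Single values of 1 other gene are not reported here.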

Additional observations from a re-analysis of the deposited data

Results flagged for a closer look

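Among 60 sets of 4 arrays (10 probes in 6 groups), 3 had an array far from the other 3 by Dixon's criterion on the gap to the nearest array over the range, a rate that chance gives for about 1 set in 20. Tg on morning acrylamide replicate 1 was at -0.85, and Iyd on the same array was at -7.14. Slc26a4 on male acrylamide replicate 2 was at -8.27, a value not well above background. Duox2 differed on acrylamide by 0.56 in males at night and by -0.82 in females in the morning, in each case with every acrylamide array beyond every control; the difference between these 2 strata, which differ in both sex and hour, was not tested.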

How the results depend on the processing

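Of 556 member differences under 15 alternative settings, 505 kept their direction and side of the threshold, 30 reversed, 11 lost a call and 10 gained one; the settings with 16 night arrays, without 2 arrays that stand apart and without 2 arrays of the highest 3′ to 5′ measure were chosen after seeing the data, as was the follicular scale without morning acrylamide replicate 1. The cause of each change was not tested. The Duox2 fall in the morning lost its call in 9 of 12 settings (adjusted p 0.0344 to 0.376). Probes called for acrylamide in females in the morning numbered 429 as reported, 18 with array-median scaling and with the deposited table, 243 with normexp, 1059 with quantile normalization, 111 without the filter, 0 with the compared groups alone and with the replicate block, 94 with slide as a block, 4 with array weights and 37 without both arrays that stand apart; member probes called were 2 with quantile normalization and 0 in the others of these. For males at night they numbered 2 with array-median scaling and the deposited table, 3 with normexp, 4 with array weights and with night arrays alone, and 1 without the filter and with the replicate block. The mean over the 3 strata called 0 with array-median scaling, the deposited table, slide as a block and without both arrays, 3 with normexp and 6 with array weights. Night against morning called 4 members with array-median scaling and the deposited table, 5 with array weights, 7 with the compared groups alone, and 1 with slide as a block and with a filter on all 24 arrays. The 7 include Tg, which was saturated on all 4 morning controls, so its call gives no size or direction. In the main fit 47.6% of all probes were called, and the shares of all probes in these settings are not given, so no gain is read from the counts. Males against females called 46 probes with array weights, 1 with quantile normalization and 0 with that filter. The replicate numbers did not pair the samples: over 12 pairs correlations of deviations ran from -0.24 to 0.36, with the own number best in 3, and the block, beside these counts, took the Duox2 call in the morning to an adjusted p of 0.108 and changed no other member call.

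Leaving out 1 array at a time, probes called ran from 0 to 0 (females at night), 0 to 8 (males), 2 to 2386 (morning), 0 to 30 (mean of strata), 0 to 0 (sex difference), 0 to 264 (hour difference), 9948 to 11645 (night against morning) and 0 to 3 (sex in controls), and member probes from 0 to 4 in the morning, 0 to 1 for the hour difference, 1 to 4 for night against morning and 0 to 0 in the others; 4 members were called without morning acrylamide replicate 4 (Duox2, with Slc26a7 at -3.02, Duoxa1 at -0.90 and Iyd at -3.35). Members whose sign turned ran from -0.037 to 0.073 (Duox1), -0.046 to 0.12 (Iyd), -0.16 to 0.019 (Slc26a4), -0.46 to 0.22 (Slc5a5) and -0.11 to 0.17 (Tg) in females at night, -0.25 to 0.00033 (Slc26a4) and -0.042 to 0.40 (Tg) in males, and -0.18 to 0.19 (Duox1), -0.077 to 0.20 (Duoxa1), -0.094 to 0.16 (Slc26a4), -0.18 to 0.063 (Slc5a5) and -0.39 to 0.054 (Tg) for males against females.

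Reversed differences were as follows. Slc26a4 in females at night was 0.012 with the deposited table, 0.067 with normexp and 0.22 with quantile normalization, and in males 0.047 with array-median scaling and with the deposited table, 0.062 with normexp and 0.022 with quantile normalization; Slc5a5 in females at night was 0.12 with array weights. Duox1 for males against females was -0.27 with array weights, -0.054 with normexp and -0.00023 with quantile normalization, and Duoxa1 -0.13 with array weights. With slide as a block, night against morning was -0.035 for Slc5a5 and -0.022 for Iyd. Relative to the follicular genes, females at night gave -0.045 (Tg), -0.064 (Duox1) and -0.039 (Iyd), males -0.30 (Tg) and -0.070 (Duoxa1), the morning 1.23 (Slc26a4), 1.74 (Duox1), 1.31 (Duox2), 1.53 (Duoxa1) and 1.05 (Duoxa2), all below the median of 2.03 over all probes on that scale, night against morning -0.013 (Duox2), and males against females 0.13 (Tg), 0.22 (Slc5a5), 0.11 (Slc26a7), 0.21 (Duox2) and 0.070 (Duoxa2). Saturation bounds Tg in the morning, and background bounds Slc26a4 at night.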
